A study of Mus musculus with 4 samples.

Results

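Accessible regions that lay at an end of a single gene and were listed for wild-type double-positive (DP) thymocytes without a counterpart in the knockout are described here. They came from ATAC-seq, which maps open DNA through the places a transposase can reach and tag, and a region is a stretch where the peak caller found more tagged reads than around it. A WT region was taken when it overlapped the 1000 bp before or after an annotated end of exactly 1 protein-coding gene and shared no base with a KO region. This gave 2624 of 15215 WT regions, at 2501 genes. The members were thus chosen by the WT call and the absence of a KO call, so their WT strength and their share are descriptions. They made up 45.3% of the 5795 WT regions at a single gene end (exact 95% interval 44.0 to 46.6). The other 3171, called kept regions below, overlapped a KO region. Over all WT regions, 53.8% had no KO region.

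All mice were C57BL/6 and carried loxP sites in both Chaf1b alleles (CHAF1bfloxp/floxp). The WT group had no further allele named, and the KO group also carried Cd4-cre, a transgene whose Cre acts in T lineage cells from about the DP stage on. Each group had 2 replicates of 50000 sorted CD4+CD8+ thymus cells, which the authors pooled into 1 list per group, so no difference below has a replicate check. The sources used here give neither ages nor the number of mice behind a replicate. Read depth differed too: the genome background, the reads that the caller takes as typical of any site, was 1.37 in WT and 1.03 in KO, a ratio of 0.752. WT regions were found at an end of 8 of 13 DP markers. Of the 6 myeloid, 5 erythroid and 6 stromal markers, 0 had such a region. Only Ebf1 of the 6 B cell markers had one, and of the 5 natural killer markers Gzma and Prf1 had one. The KO list, with 7645 regions against 15215 in WT, had regions at an end of 1 of 13 DP markers. It had them at 2 of 5 natural killer markers and at 0 of the B cell, myeloid, erythroid and stromal markers.

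Chaf1b encodes the middle subunit of CAF-1, a chaperone complex that places H3 and H4 histones on newly copied DNA. Nucleosomes are laid down behind each replication fork, while active promoters are kept largely free of them by transcription factors and remodelling enzymes. ATAC-seq therefore reads promoters as open sites at gene starts, and weakly used promoters give few reads. DP thymocytes rearrange their T cell receptor alpha chain and pass selection, and invariant natural killer T (iNKT) cells branch off at this stage. Absence from a list means that the caller found no region, and the DNA there may still have been open.

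The promoters of 5 members among the highest in WT show how unlike these sites are in sequence. They are the first 5, by WT fold enrichment, whose summit (the base with most reads) lay within 250 bp of the start in the promoter table. Each is the 250 bases before the start, from RefSeq (GRCm38.p6), read along the gene's strand, at chr9:21092000-21092249 (Raver1, minus strand), chr13:67451625-67451874 (Zfp874a, minus), chr9:8042876-8043125 (Cfap300, minus), chr11:69059525-69059774 (Borcs6, plus) and chr15:100495240-100495489 (Csrnp2, minus). Capitals mark matches on either strand to 10 motifs, CCAAT (bound by NF-Y), GGGCGG (SP and KLF factors), CCGGAAGT (ETS), TGACGTCA (CREB family), GCGCATGC (part of the NRF1 site), CTCGCGAG (part of the ZBTB33 site), TGTGGTT (RUNX), CACCTG (E proteins), CTTTGATC (TCF and LEF) and, for the TATA box, the letters TATAAA. None of these strings contains another.
Raver1: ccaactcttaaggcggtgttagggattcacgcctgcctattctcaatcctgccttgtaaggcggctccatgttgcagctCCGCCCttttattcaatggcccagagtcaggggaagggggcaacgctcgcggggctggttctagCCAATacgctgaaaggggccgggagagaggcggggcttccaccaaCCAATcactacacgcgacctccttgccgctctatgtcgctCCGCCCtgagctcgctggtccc
Zfp874a: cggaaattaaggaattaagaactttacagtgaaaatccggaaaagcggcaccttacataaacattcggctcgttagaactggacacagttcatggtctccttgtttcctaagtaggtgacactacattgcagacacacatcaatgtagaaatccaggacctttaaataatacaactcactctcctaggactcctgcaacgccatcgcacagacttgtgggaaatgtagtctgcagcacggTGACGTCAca
Cfap300: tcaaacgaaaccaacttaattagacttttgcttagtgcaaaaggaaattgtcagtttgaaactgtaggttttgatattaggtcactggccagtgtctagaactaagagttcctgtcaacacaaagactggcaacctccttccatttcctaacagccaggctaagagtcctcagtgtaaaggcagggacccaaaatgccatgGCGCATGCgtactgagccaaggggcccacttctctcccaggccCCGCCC
Borcs6: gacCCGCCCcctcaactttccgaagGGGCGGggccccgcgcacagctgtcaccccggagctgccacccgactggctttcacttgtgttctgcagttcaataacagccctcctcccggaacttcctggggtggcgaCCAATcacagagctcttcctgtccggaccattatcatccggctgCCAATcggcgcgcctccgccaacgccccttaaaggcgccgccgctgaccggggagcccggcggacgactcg
Csrnp2: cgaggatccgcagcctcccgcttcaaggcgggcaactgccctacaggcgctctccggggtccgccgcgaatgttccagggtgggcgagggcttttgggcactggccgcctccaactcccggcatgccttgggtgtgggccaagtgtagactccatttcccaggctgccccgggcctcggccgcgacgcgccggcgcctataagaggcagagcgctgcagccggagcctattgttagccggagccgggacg

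Raver1 and Borcs6 each held 2 CCAAT boxes and 2 GGGCGG boxes, Zfp874a held 1 TGACGTCA close to its start, Cfap300 held 1 GCGCATGC and 1 GGGCGG, and Csrnp2 held none of the 10 motifs. CpG dinucleotides numbered 16 at Raver1, 9 at Zfp874a, 4 at Cfap300, 24 at Borcs6 and 25 at Csrnp2. The WT summits lay 93, 8, 147 and 90 bp before the start at Raver1, Zfp874a, Borcs6 and Csrnp2, and 9 bp after it at Cfap300. So members of nearly the same WT fold enrichment ranged from CpG-rich promoters to a promoter with almost no CpG. The shares of all members that hold each motif are given further on.

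Most members were weak in WT. Fold enrichment, the reads at the summit over the local background with 1 added to each, had a median of 5.72 in the members (quartiles 4.93 and 6.74, range 2.52 to 14.5) and of 8.49 in kept regions (6.91 and 10.4). At the summit the members had a median of 15 reads (range 8 to 46), against 26 in kept regions. Their median width was 280 bp (200 to 1125) against 445 bp, and their median -log10 q was 6.94 against 16.1. The narrowest width a list could hold, 200 bp, was that of 287 members (10.9%) and of 27 kept regions (0.851%). Few members had many reads: 538 had at least 20 and 41 at least 30.

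**Figure D1:**
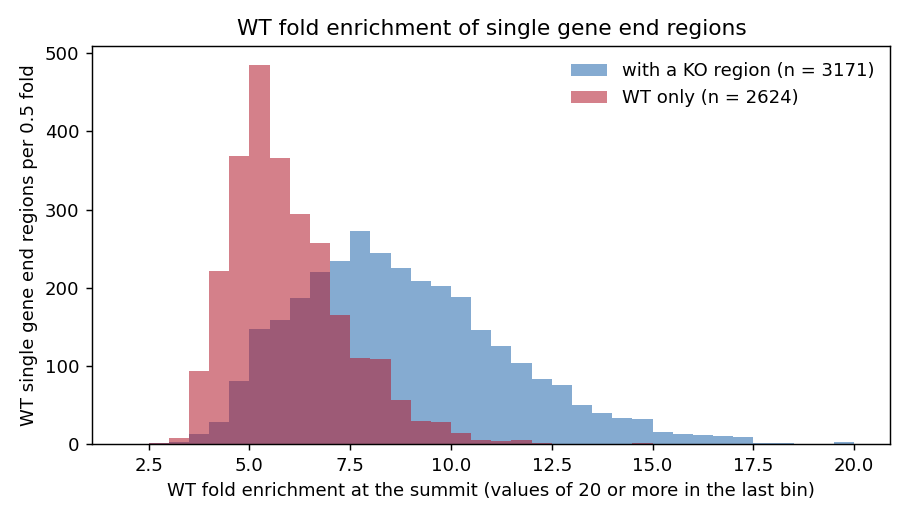
Number of WT single gene end regions (vertical axis) by WT fold enrichment at the summit (horizontal axis), for the 2624 WT-only regions in red and the 3171 regions with a KO region in blue. The WT-only regions peak at lower values, with a median of 5.72 against 8.49, and the 2 groups overlap over most of the range.

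The share of regions without a KO counterpart fell with WT reads, as a description of how the members were chosen. It was 92.4% (242 of 262) at 10 reads or fewer, 79.5% above 10 and up to 15, 59.1% up to 20, 32.9% up to 25 and 13.5% up to 30. Above 30 reads it was 2.66%, or 31 of 1164 regions (exact interval 1.82 to 3.76). By fold enrichment the share went from 83.7% at 5 or less to 2.85% above 10, or 27 of 947. A member with more than 30 reads or a fold above 10 was thus uncommon, and those members are described next.

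**Figure D2:**
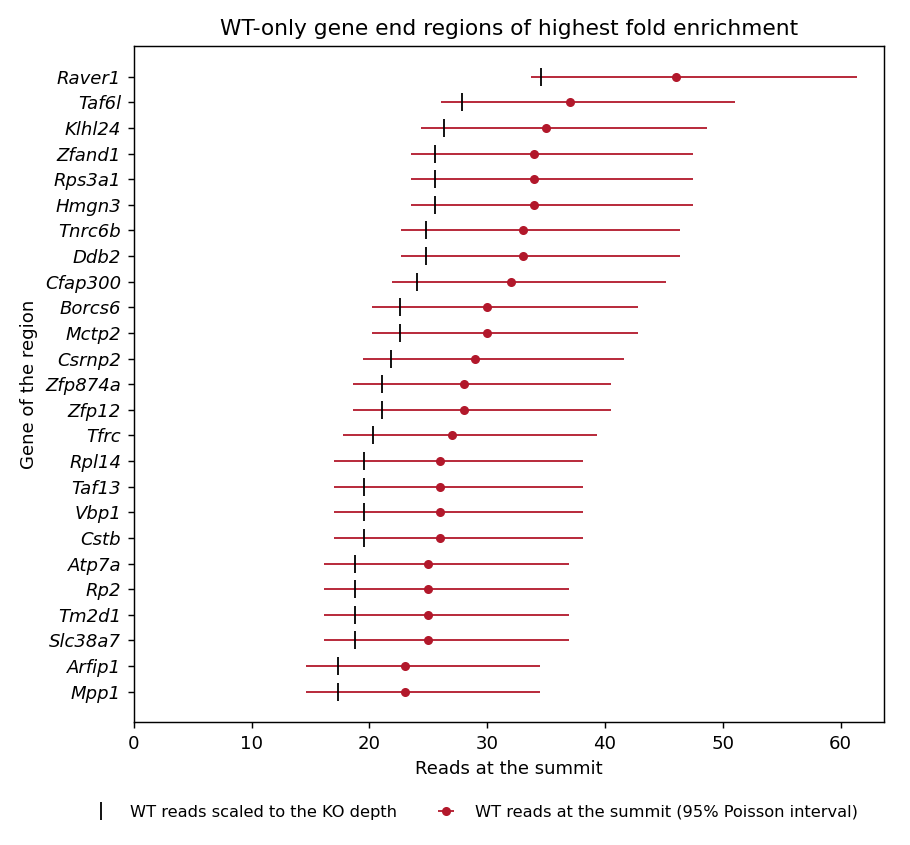
WT reads at the summit (horizontal axis) of the 25 WT-only regions of highest fold enrichment (rows, by gene), as red points with 95% Poisson intervals that cover counting error only. Black ticks give the same reads multiplied by the depth ratio, from 17.3 at Arfip1 and Mpp1 to 34.6 at Raver1.

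The 25 members of highest WT fold enrichment, predicted genes left aside, lay between 10.1 and 14.5, with 23 to 46 reads and widths of 261 to 661 bp. Raver1 (chr9:21091904-21092254), which encodes an RNA-binding partner of the splicing regulator PTB, led with a fold of 14.5 and 46 reads (exact Poisson interval 33.7 to 61.4). Taf6l, which encodes a subunit of the SAGA coactivator complex, had 11.4 and 37 reads. Rp2, a GTPase-activating protein gene on chromosome X, had 10.96 and 25 reads. These summits stood within 100 bp of an annotated gene end.

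Genes of ribosomes, of general transcription and of membrane transport were also among the 25. Rps3a1 (fold 10.8, 34 reads) and Rpl14 (10.3, 26 reads) encode proteins of the small and the large ribosomal subunit. Taf13 (10.4, 26 reads) encodes a subunit of the general transcription factor TFIID. Atp7a (10.3, 25 reads) encodes a copper transporter, Slc38a7 (10.5, 25 reads) an amino acid transporter, and Tfrc (10.1, 27 reads) the transferrin receptor that takes up iron. Tnrc6b (10.1, 33 reads) encodes an Argonaute-binding protein of microRNA silencing, and Cstb (10.4, 26 reads) the protease inhibitor cystatin B. Zfand1 (10.9, 34 reads) and Zfp12 (10.7, 28 reads) encode zinc finger proteins. No list was tested for enrichment among these genes.

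Of these 25 members, 19 could be matched to a strand, and all 19 lay nearer to the start than to the far end of their gene. No KO region lay within 10 kb of 23 of them. At 3 of the genes a KO region lay at an annotated end all the same. At Raver1 it was at chr9:21073391-21073590, with a KO fold of 6.40 and 12 reads, 18.3 kb from the member. At Taf6l it was at chr19:8774339-8774542, with 5.75 and 12 reads. At Klhl24, whose product is a substrate adaptor of a cullin ubiquitin ligase, the member (10.1, 35 reads) ended 12 bp before a KO region at chr16:20097878-20098330 (7.20, 17 reads). The Klhl24 member thus had a KO region directly beside it, while the KO regions of the other two genes lay more than 10 kb away.

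Scaled by the depth ratio, most members came out below a typical KO region and above the weakest one. Their scaled summit reads had a median of 11.3, where the median KO region had 15 reads and the weakest had 7. With reads and background both scaled, 2591 of 2624 members (98.7%) had a -log10 p at or above the lowest of the KO list, 4.19, and 392 (14.9%) at or above its median, 11.8. Of kept regions, 3169 of 3171 passed the first mark and 2259 (71.2%) the second. Depth was lower in the KO group than in WT, by a single ratio applied alike to members and kept regions. Its part in the missing KO calls was not tested. KO reads at these sites were not analysed here.

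Members were mostly far from any KO region. The nearest KO region lay a median of 48470 bp away, while 247 members (9.41%) had one within 1000 bp and 102 (3.89%) within 200 bp. The nearest after Klhl24 were the members at Usp48 (15 bp), Mms22l (24 bp), B3gnt9 (26 bp) and Pknox2 (27 bp). Usp48 encodes a ubiquitin protease and Mms22l a factor that protects stalled replication forks. Their WT folds were 6.91 and 5.90, with 16 and 13 reads, and the KO regions beside them had folds of 5.66 and 5.26 with 11 reads each. At B3gnt9 (4.24 in WT) and Pknox2 (4.17 in WT) the KO regions had 3.82 and 4.46. At these genes the WT and KO calls were adjacent, so only their borders set the member apart from a kept region. Kept regions with the least overlap were those at Wls (5 bp shared, WT fold 4.49), Gorasp2 (9 bp, 7.5) and Lrrc58 (10 bp, 4.22).

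The other border of the rule is the window. The members farthest out lay 998 bp from a gene end at Elovl1 (fold 4.92), 993 bp at Npas2 (6.79) and 984 bp at Zmym4 (6.00). Just outside it, and so no members, were WT-only regions 1004 bp from Atp6v0a1 (5.48) and 1009 bp from Srebf1 (6.59). Values on both sides of the border were alike in range. At Elovl1 and Zmym4 the summit was 123 and 40 bp before a start in the promoter table, so another annotated start of the same gene lay closer to them.

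Position within the gene was not used by the rule beyond the window. The promoter table gave a strand for 2113 members (80.5%) and 2615 kept regions (82.5%). Of these members, 1991 (94.2%, exact interval 93.1 to 95.2) lay nearer to the start and 122 (5.77%, 4.82 to 6.85) nearer to the far end. Of kept regions, 54 (2.07%, 1.56 to 2.69) lay nearer to the far end. Both sets were thus mostly promoters, and the share at far ends was higher in the members than counting error in either set allows. Fold enrichment moved with this share, so it was also read within ranges of fold. At a fold of 5 or less it was 6.08% of members (4.27 to 8.35) and 3.60% of kept regions (0.990 to 8.97). Above 5 and up to 6 it was 7.19% of members (5.345 to 9.41) and 2.50% of kept regions (0.923 to 5.362). Above 6 and up to 7 it was 6.28% (4.18 to 9.0045) and 2.15% (0.870 to 4.39), and above 7 and up to 8 it was 2.24% (0.732 to 5.15) and 2.89% (1.503 to 4.996). Above 8 and up to 9 it was 4.20% (1.56 to 8.91) and 2.34% (1.08 to 4.40). From above 9 up to 10 it was 0% of 52 members (0 to 6.85) and 1.34% of kept regions (0.438 to 3.11). At folds above 10 it was 4.76% of 21 members (0.120 to 23.8) and 1.43% of kept regions (0.717 to 2.55). The share was higher in members in each of these ranges except above 7 and up to 8 and above 9 and up to 10. The intervals of the 2 sets overlapped in each range, only barely so above 5 and up to 6. Overlap of intervals does not show equal shares, and a difference at equal fold was not tested.

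**Figure D3:**
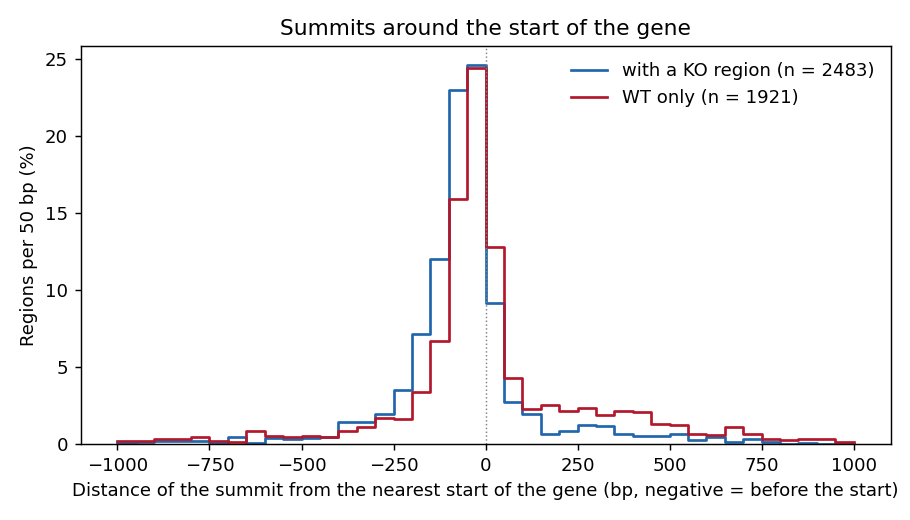
Distance of the WT summit from the nearest start of its gene (horizontal axis, bp along the strand) against the percentage of regions in each 50 bp bin (vertical axis), for 1921 WT-only regions in red and 2483 regions with a KO region in blue. Both peak just before the start, and the WT-only curve lies lower before it and higher after it, with a median of -22 bp against -57 bp.

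Around the start, the members' summits were spread further into the gene. Among regions with a summit within 1000 bp of a start, the median lay 22 bp before it in members (quartiles -82 and 67) and 57 bp before it in kept regions (-122 and -9). Of the members with a strand, 1246 (59.0%) had their summit in the stretch from 250 bp before to 50 bp after a start, against 75.4% of kept regions. A further 513 (24.3%, 22.5 to 26.2) had it more than 50 and up to 1000 bp after the start, against 312 kept regions (11.9%, 10.7 to 13.2). The share more than 250 and up to 1000 bp before the start was 7.67% and 7.57%, a difference within counting error. Over 1000 bp from every start lay 192 members (9.09%) and 5.05% of kept regions.

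This placing also moved with fold enrichment. The share with a summit in that stretch was 44.1% in members and 57.7% in kept regions at a fold of 5 or less. It was 58.8% and 63.3% up to 6, 62.6% and 68.3% up to 7, 74.9% and 71.1% up to 8, 71.3% and 75.3% up to 9, and 80.8% and 80.4% up to 10. At folds above 10 it was 90.5% of 21 members and 84.9% of kept regions. In both sets stronger regions sat closer to the start. The intervals of the 2 sets overlapped in each of these ranges. At a fold of 5 or less the overlap was narrow, with 40.0 to 48.3 in members and 47.9 to 67.0 in kept regions. Overlap does not show equal shares, and a difference in placing at equal fold was not tested.

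Some members with many reads lay at the far end of their gene. The 8 of highest fold enrichment, predicted genes left aside and chosen after their values were seen, ran from 7.17 to 8.74. Myrip, which encodes a linker of Rab27 to myosin, had a fold of 8.74 and 24 reads at chr9:120476294-120476642. Dnajb12, which encodes a chaperone of the endoplasmic reticulum, had 8.02 and 33 reads at chr10:59899626-59899994. Ppm1b, which encodes a protein phosphatase, had 8.20 and 20 reads, and Csrp1, a LIM protein gene, had 7.59 and 17 reads. Sfxn3 (8.44, 25 reads) had a KO region 656 bp away, and Prrt3 (8.21, 21 reads), Tmem95 (7.72, 18 reads) and Zfp329 (7.17, 16 reads) had none within 10 kb. At Tmem95 the summit lay 1043 bp from the far end and 958 bp after a start in the promoter table, so that start was closer. Whether a far-end site is a promoter of another transcript or an enhancer cannot be told from these lists.

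The widest members were at Prdm15 (1125 bp, fold 4.92), Gyg (907 bp, 5.65), Mtarc2 (903 bp, 8.06), Gbp3 (875 bp, 8.84) and Ctr9 (869 bp, 6.79). Prdm15 encodes a zinc finger regulator of transcription, Gyg the glycogen primer glycogenin, Gbp3 an interferon-induced GTPase and Ctr9 a subunit of the PAF1 elongation complex. Their summit reads ran from 17 at Prdm15 to 28 at Gbp3, and Gbp3 and Mtarc2 (24 reads) exceeded the 90th percentile of the members in reads (22) and in fold (7.93). The members of lowest fold with a named gene, chosen after their values were seen, were at Nrip1 (3.23), Cxcr4 (3.11) and Epas1 (3.11). Cxcr4 encodes the chemokine receptor that guides thymocytes in the cortex. Its member, with 12 reads 8 bp before the start, lay 676 bp from a KO region.

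Most genes had 1 member: 2383 had 1, 113 had 2 and 5 had 3. A further kept region was present at 233 of the 2501 genes (9.32%), and 288 genes (11.5%, 10.3 to 12.8) had a KO region at an end in spite of the member. At those 288 genes the member was therefore not the loss of every call, and the rest had no KO region at an end. At Ptpn18, a tyrosine phosphatase gene, the members were 1 at the start (7.64, 23 reads) and 2 at the far end (5.90 and 4.58). Myl12b, which encodes a myosin regulatory light chain, had 1 at the start (6.56, 20 reads) and 2 at the far end (5.64 and 4.81). Kctd18 had 2 at the start (6.61 and 3.79) and 1 at the far end (5.90), and Tmem140 likewise (5.90 and 3.82, and 5.96). At Mfsd6, which encodes a membrane protein, the 3 members (6.54, 4.69 and 4.43) all lay around the start and 2 of them were 30 and 32 bp from a KO region. At the other 4 genes the nearest KO region was over 2 kb away.

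Gene groups were described with 31 lists, chosen with earlier results of these data known. For each list the count of members stands beside the background of 45.3% and beside the count that its regions' own fold deciles would give at the shares measured over all single gene end regions. These counts carry no test. Weaker regions raise a list's share, so the second value is the closer comparison.

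**Figure D4:**
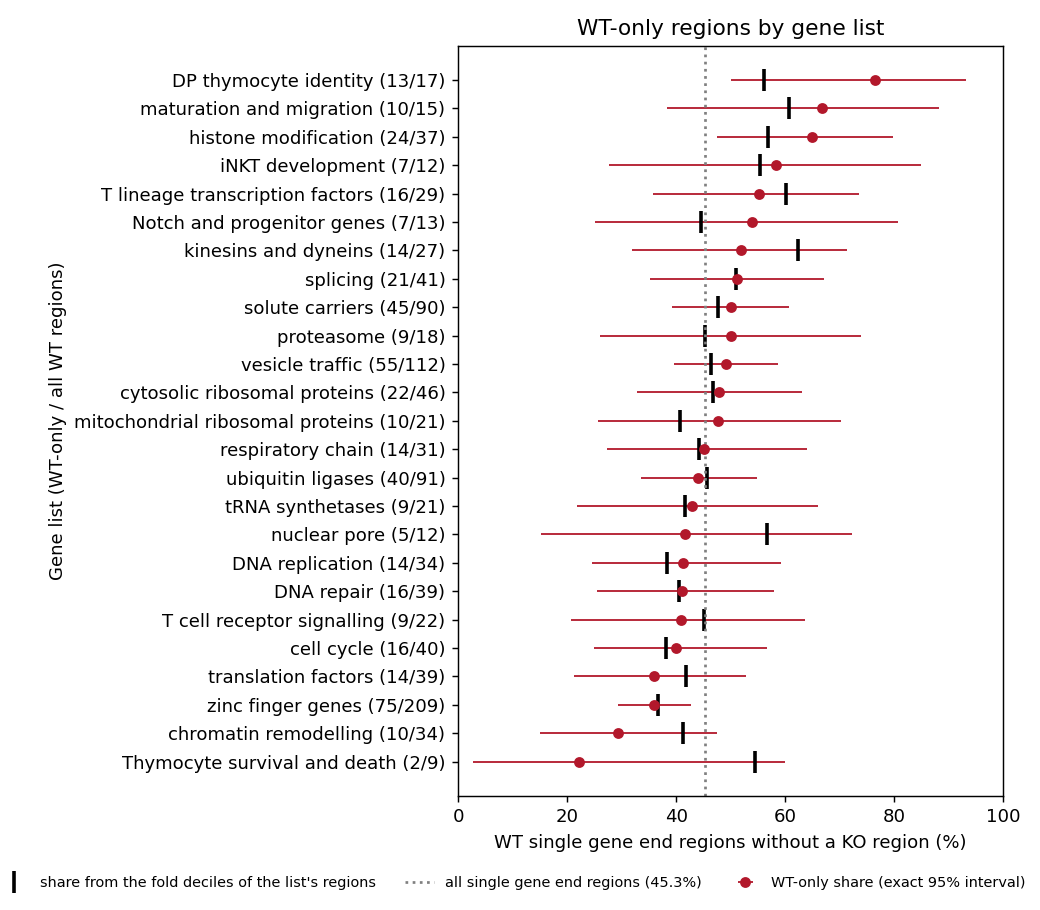
Share of each list's WT single gene end regions that had no KO region (horizontal axis, %), as red points with exact 95% intervals, for the 25 lists with at least 5 regions (rows). The dotted line is the 45.3% over all single gene end regions and black ticks are the shares from the fold deciles of the list's own regions, and every interval spans its tick, while those of DP thymocyte identity, histone modification and zinc finger genes do not span the line.

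Among the lists with at least 5 regions, genes that mark DP thymocytes had the highest share, 13 members of 17 regions (76.5%, 50.1 to 93.2), where the fold deciles gave 9.53. Rag1, which with Rag2 encodes the V(D)J recombinase, had 2 members (6.57 with 25 reads, 5.71 with 15), and Satb1, a chromatin organiser of thymocytes, had 2 (5.56 with 17 reads, 3.85 with 11). Rag2 had 22 reads, Cd3g, a chain of the T cell receptor complex, had 22, and Themis and Bcl11b had 20 each. Cd247 (4.96, 15 reads), the zeta chain gene, had a member too. Kept regions of the list were at Cd2 (11.5, 38 reads), Tox (9.21), Tcf3 (7.25) and Cd8b1 (5.43). The interval of the list excluded 45.3% and included the share of 56.1% from the deciles.

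T cell receptor signalling genes had 9 members of 22 regions (40.9%, with 9.93 from the fold deciles). Members included Rasgrp1, the Ras activator (7.94, 26 reads), the ubiquitin ligase Cbl (6.29, 18 reads) and the kinase Akt1 (5.74, 23 reads). Vav1 had 2 members (5.69 and 4.93). Kept were Bcl10 (14.6, 69 reads), Ppp3ca (13.5), Cblb (13.5) and Fyn (11.5), all above every member of the list. Below a fold of 10, members and kept regions were interleaved. The share without a KO region fell with WT fold enrichment over all single gene end regions too.

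T lineage transcription factors had 16 members of 29 regions (55.2%, with 17.4 from the fold deciles), and the strongest were Klf2 (8.04, 22 reads), which drives exit from the thymus, Bcl11b (6.69), Elf4 (6.32) and Cbfb (6.20), the partner of RUNX proteins. Runx3 (5.70), Ikzf3 (5.90) and Gfi1 (4.11) were members as well. Maturation and migration genes had 10 of 15 (66.7%, with 9.10), among them Klf2, Cd24a (5.79) and Ccr9 (5.06). At Dock2, a Rac activator of lymphocyte migration, 1 region was a member (5.83, 20 reads, 480 bp from a KO region) and 1 was kept (7.42). Notch and progenitor genes had 7 of 13 (53.8%, with 5.79), among them Dtx2 (7.17, 16 reads), a regulator of Notch signalling, and the receptor genes Notch1 (6.52) and Notch2 (5.39). For iNKT development the count was 7 of 12 (58.3%, with 6.65), including Rasgrp1 and the DNA demethylase gene Tet3 (5.28). Survival and death genes had 2 of 9 (22.2%, with 4.90), Birc3 (5.93) and Pmaip1 (3.79).

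The 2 chromatin lists lay on opposite sides of the background. Histone modification genes had 24 members of 37 regions (64.9%, 47.5 to 79.8, with 21.1 from the fold deciles). The strongest were Setd2 (8.90, 25 reads), the methyltransferase of histone H3 lysine 36, Hdac1 (8.61, 20 reads), a deacetylase, Ep300 (8.46, 21 reads), an acetyltransferase, and Suz12 (7.52, 19 reads), a subunit of Polycomb repressive complex 2. Chromatin remodelling and chaperone genes had 10 of 34 (29.4%, 15.1 to 47.5, with 14.1). Hmgn3 (34 reads) led them, ahead of Hmgn5 (7.24, 21 reads, 247 bp from a KO region), Ino80 (6.52) and Ruvbl1 (6.02), ATPases of remodelling complexes. Kept regions of this list included Hmgb2 (12.5), Chd8 (12.3), Nap1l4 (12.2) and Chaf1b itself (5.60, 14 reads). The region at Chaf1b does not check the deletion, since the sources used here do not place the loxP sites. The interval of the histone modification list lay above 45.3%, and those of both lists held their decile shares of 56.9% and 41.3%.

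Genes of the copying and repair of DNA were close to background. DNA replication genes had 14 members of 34 regions (41.2%, with 13.0 from the fold deciles), led by Top2a (7.94, 19 reads), a topoisomerase, Mcm6 (7.86, 21 reads), a subunit of the replicative helicase, Rnaseh2b (7.17) and Rrm2 (7.10, 21 reads), a subunit of ribonucleotide reductase that had a KO region 211 bp away. DNA repair genes had 16 of 39 (41.0%, with 15.8), led by Ddb2 (33 reads), Atrip (9.93, 27 reads), the partner of the ATR kinase, Xpa (7.14) and Rad50 (7.02). Cell cycle genes had 16 of 40 (40.0%, with 15.3), led by Cenpa (9.56, 25 reads), the centromeric histone H3 variant, Fzr1 (9.06, 28 reads), an activator of the anaphase-promoting complex, Rbl2 (7.75) and Bub1b (7.08). The counts of these 3 lists and the counts from their fold deciles differed by about 1 region or less.

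Genes of protein synthesis and turnover were near background too. Cytosolic ribosomal proteins had 22 members of 46 regions (47.8%, with 21.5 from the fold deciles), mitochondrial ones 10 of 21 (47.6%, with 8.56) and the respiratory chain 14 of 31 (45.2%, with 13.7). Rps6 (8.50, 24 reads), Mrps36 (7.42) and Ndufaf4 (7.72) were among the strongest there. Proteasome genes had 9 of 18 (50.0%, with 8.16), led by Psmc3 (9.69, 22 reads), and ubiquitin ligases 40 of 91 (44.0%, with 41.6), led by Trim34a (8.96). Splicing genes had 21 of 41 (51.2%, with 20.9), led by Sf3b1 (8.85, 20 reads), a core subunit of the U2 particle, and Prpf38a (8.40). Translation factors had 14 of 39 (35.9%, with 16.3), with Eef1e1 (9.12) and Eif2d (8.75), and tRNA synthetases 9 of 21 (42.9%, with 8.73), with Wars2 (8.05). In these lists the members were a part of each machine and not the whole of it.

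The largest lists gave the narrowest intervals. Zinc finger genes had 75 members of 209 regions (35.9%, 29.4 to 42.8), below the 45.3% background, and their fold deciles gave 76.6. Zfp212 (9.60, 28 reads) and Zfp451 (9.35, 22 reads) followed Zfp874a and Zfp12 in strength. Vesicle traffic genes had 55 of 112 (49.1%, with 51.9), led after Borcs6 by Copb2 (9.69), a coat protein, Sec23b (9.51, 30 reads) and Rab3d (8.68). Solute carriers had 45 of 90 (50.0%, with 42.9), among them Slc25a35 (9.19) and Slc22a8 (8.76). Kinesins and dyneins had 14 of 27 (51.9%, with 16.8), led by Kif5c (8.47), and nuclear pore genes 5 of 12 (41.7%, with 6.81), led by Rae1 (8.08) and Nup50 (7.80). The lower share of zinc finger genes was thus close to that of other regions of the same WT fold enrichment. Among lists of other cell types, the B cell list had 1 member of 1 region (Ebf1, a B lineage factor gene, 6.30 with 16 reads), the natural killer list 0 of 2 and the neural and muscle list 0 of 1, and the myeloid, erythroid and stromal lists had no single gene end region.

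Promoter sequence was compared over 1 promoter per gene, 2010 for members, 2556 for kept regions (188 genes are in both sets) and all 32851 of the table. Members' promoters were CpG-rich, with a median of 21 CpG in 300 bases (quartiles 14 and 29), against 22 (16 and 29) in kept regions and 7 (3 and 20) in all promoters. Fewer than 5 CpG were found in 5.37% of members' promoters, 3.21% of kept ones and 38.0% of all. Median GC was 61.0%, 62.3% and 52.7%. Members were thus close to kept regions and far from the table as a whole in base composition.

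Pooled over all folds, CCAAT had the largest difference between members and kept regions in percentage points, and GGGCGG and TATAAA also differed. CCAAT was found in 35.8% of members' promoters (33.7 to 38.0), 50.9% of kept ones (49.0 to 52.9) and 37.4% of all, and at least 2 copies in 11.6%, 26.6% and 11.7%. GGGCGG was found in 66.5% (64.4 to 68.5), 73.7% (71.996 to 75.4) and 35.7%. For the other motifs the intervals of members and kept regions overlapped, except TATAAA, found in 7.46% of members' promoters (6.352 to 8.70), 5.40% of kept ones (4.55 to 6.347) and 13.6% of all. CCGGAAGT was found in 9.005%, 7.86% and 3.89%, TGACGTCA in 4.03%, 3.60% and 1.79%, GCGCATGC in 7.11%, 6.22% and 2.71%, and CTCGCGAG in 1.89%, 2.39% and 0.919%. The motifs of T cell factors were uncommon in both sets, with TGTGGTT in 3.38%, 3.33% and 5.27% and CTTTGATC in 0.348%, 0.587% and 0.938%. CACCTG was found in 17.0%, 14.9% and 20.2%. A match is a description of letters and not a site of binding.

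**Figure D5:**
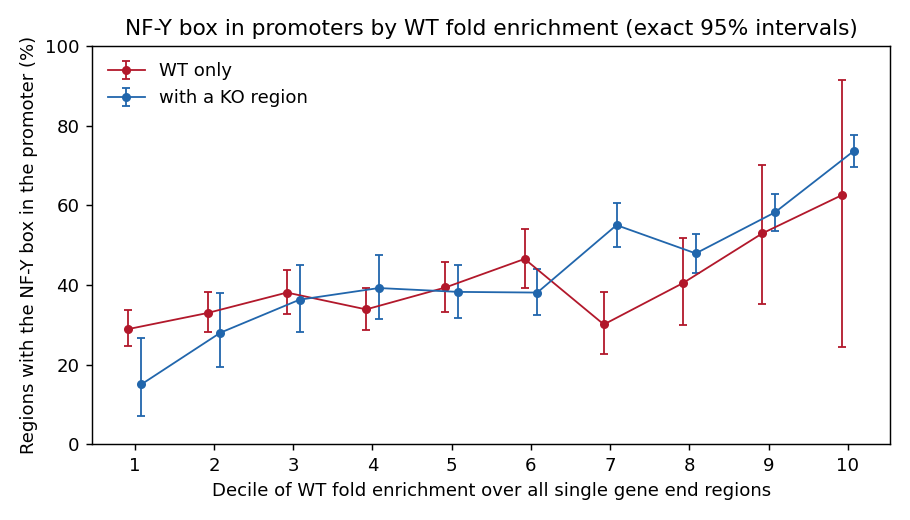
Percentage of regions whose promoter holds the NF-Y box (vertical axis) by decile of WT fold enrichment (horizontal axis, 1 the lowest), for WT-only regions in red and regions with a KO region in blue, with exact 95% intervals. Both curves rise with fold enrichment, from 28.9% and 15% in decile 1 to 62.5% and 73.7% in decile 10.

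The CCAAT share followed WT fold enrichment in both sets. Pooled over all folds, with 1 promoter per gene, members held it less often by 15.1 percentage points. Another value, added after the data were seen, counted every region with a promoter in deciles 1 to 9 and weighted the deciles alike. That difference (members minus kept regions) was -1.42 points, and its unit is not that of the pooled one. Decile 10, with 8 members, was left out of that and had -11.2 points. Members were above kept regions in deciles 1, 2, 3, 5 and 6, by up to 13.9 points, and below them in the others. In decile 7 members had 30.1% and kept regions 55.02%, with intervals that did not overlap. Where the summit lay within 250 bp of a start, boxes in both sets were most frequent 50 to 100 bp before it, in 14.6% of members' promoters and 27.05% of kept ones, the stretch in which Raver1 holds a CCAAT. Both sets thus had the box most often in the same stretch.

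The GGGCGG share did not follow fold enrichment in this way. Among regions with a summit within 250 bp of a start, it was 70.4% in members and 67.6% in kept regions at a fold of 5 or less. It was 66.6% and 74.9% up to 6, 70.5% (65.1 to 75.5) and 81.0% (75.6 to 85.7) up to 7, 67.96% and 76.2% up to 8, and 60.3% (50.8 to 69.3) and 79.2% (74.3 to 83.5) up to 9. Above that it was 65.96% and 76.8% up to 10 and 63.2% and 73.8% higher up. Members thus had GGGCGG less often than kept regions in 6 of these 7 ranges, with intervals apart in 2 of them, 6 to 7 and 8 to 9. Median CpG counts were lower in members in all 7 ranges. They were 22 against 25 from 6 to 7, 21 against 25 from 7 to 8 and 20 against 23 from 8 to 9. The gap was widest at a fold of 5 or less, with 22 against 27, where members had GGGCGG more often. The part of CpG in the GGGCGG share was not tested.

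By chromosome, members made up 34.9% (27.7 to 42.7) of single gene end regions on chromosome 18, 58 of 166, and 36.9% (32.1 to 42.0) on chromosome 7, 140 of 379. They made up 48.9% on chromosome 6, 155 of 317. On X they were 87 of 160 (54.4%, 46.3 to 62.3), with Vbp1, Rp2, Atp7a and Mpp1 among the 25 strongest members. The median WT fold of single gene end regions was 6.85 on X, 7.05 on chromosome 7 and 7.18 on chromosome 18. The interval for X lay above 45.3% and those for chromosomes 7 and 18 below it, with 21 chromosomes compared and no test made.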

How the data were processed

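ATAC-seq was made from 2 replicates in each of 2 groups, 4 samples in all. Per the labels, each deposited list was made from both replicates, so tests between groups, replicate numbers and library totals were not used. Per the submitters' processing notes the build was mm10 and the tools included MACS2 2.1.4, deepTools 3.4.1, Bowtie2, Trim Galore, Picard, GATK and FastQC. How they were set (a shift for the transposase cut, removal of duplicates) is not given in the sources used here. The authors deposited for every region a score (the whole part of 10 times the -log10 q), a fold enrichment at the summit, the -log10 p, the -log10 q and the offset of the summit.

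Reads and local background at each summit were solved from the deposited fold enrichment and -log10 p, taking fold as (reads + 1) / (background + 1) and p as a Poisson tail. The solver, the overlap, the gene end rule and the motif search were tested on simulated data. Regions were compared by overlap of 1 bp. Gene ends came from a RefSeq table of GRCm38.p6, the assembly behind mm10, and strand and promoter sequences from a RefSeq promoter table. Regions are given 1-based. The members, the gene lists and the motifs were chosen with earlier results of these data known. Genes were named by rule: the 25 members of highest fold, the 5 widest, the 5 nearest a KO region, the 3 nearest the window's edge, up to 6 genes with most members and up to 4 members per list, without predicted genes. Some genes that this rule takes are not reported here. Other genes were added after their values were seen: the kept regions, the just-outside regions, the far-end and lowest-fold members, and further members of the T cell lists. Intervals are exact (Clopper-Pearson for shares, Poisson for reads) and cover counting error only. Reads are not independent molecules. The overlap rule, the q threshold, the window, the ranking, the chromosomes and the gene table were varied. The work used pandas 2.3.3 and numpy 2.4.6 under Python 3.11.15, with scipy 1.17.1 for intervals and matplotlib 3.10.9 for figures.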

Additional observations from a re-analysis of the deposited data

How the results depend on the processing

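No paired analysis was possible because each deposited list pools both replicates of its group, and leaving out a replicate could not be made for the same reason. Of 69 values recomputed, 53 were labelled the same, 16 moved and 0 reversed. A share was labelled the same within its counting interval, and a count within 1.5 times. The looser limits were the members' quartiles for a median and 5 points for the difference in CCAAT. The share of WT single gene end regions without a KO region, 45.3%, became 43.52% when a KO region within 200 bp also counted and 54.56% when KO regions had to cover at least 50% of the WT region. Asking a -log10 q of 5 or more gave 47.14% when asked of both lists and 38.91% when asked of WT alone. With at least 10 in WT, it was 18.76%, the number of members fell from 2624 to 577 and their median fold became 7.787, since weak WT regions were dropped. The share at the start of the gene, 94.2%, was 96.05% with a window of 500 bp, 91.73% with 2000 bp, 96.25% with a WT -log10 q of at least 10, and 98.42% for summits within 250 bp of an annotated end. The share of promoters with CCAAT, 35.8%, was 38.24% with a -log10 q of at least 5 in both lists, 38.23% with it in WT alone and 40.92% at 10. Ranking by -log10 q kept 15 of the 25 strongest members. The difference in CCAAT, members minus kept regions, was -15.1 points pooled with 1 promoter per gene. Counted by region over fold deciles 1 to 9 weighted alike, it was -1.423. Decile 10, with 8 members, was left out of this and had -11.2. Settings for starts and CCAAT were chosen after the data were seen, except the summit distance and the limit to genes with the region at the start. The relative depth of 0.752 limits what a missing KO call can show.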
